A study of Bos taurus with 14 samples.

Results

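The muscle miRNAs described here were the rows named bta-miR-1, bta-miR-133a, bta-miR-133b, bta-miR-206, bta-miR-208b and bta-miR-499, which are 6 of the 932 miRNA names (723 of them bovine) listed in the blood small RNA libraries of cows. They were chosen by name, with earlier results of these data known. Plasma was sequenced from cows 1 to 4 and leucocytes from cows 1, 3 and 4. Each non-lactating, ruminally cannulated Holstein cow was sampled on a forage diet (FD, 0% concentrate) and later in the first week of a high-grain diet (HG, 65% concentrate), which gave 8 plasma and 6 leucocyte libraries. FD always came before HG, so diet and sampling time cannot be told apart. Leucocytes were a whole buffy coat and were extracted with another kit than plasma, so sample type and kit cannot be told apart. As these are bulk samples, fewer cells of a type and less RNA per cell cannot be told apart either.

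MiRNAs are short RNAs that guide Argonaute proteins to matching sites in messenger RNAs and lower their output. MiR-1 and miR-133a are made together in heart and skeletal muscle, miR-206 and miR-133b in skeletal muscle, and miR-208b and miR-499 from introns of the myosin genes MYH7 and MYH7B. They are known in plasma as markers that leak from damaged muscle.

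On the UMD3.1 build used by the files, bta-miR-1 was placed at chromosome 13, 55237592 to 55237613 on the minus strand, and at chromosome 24, 34841148 to 34841169 on the plus strand. For bta-miR-133a the positions were chromosome 13, 55227350 to 55227371 (minus), and chromosome 24, 34844466 to 34844487 (plus), 3318 bp from bta-miR-1. The miRNAs bta-miR-206 (chromosome 23, 24308094 to 24308115) and bta-miR-133b (24312377 to 24312398) lay 4283 bp apart on the plus strand. The remaining members were bta-miR-208b at chromosome 10, 21340667 to 21340688, and bta-miR-499 at chromosome 13, 64900493 to 64900513, both on the plus strand. In the RefSeq annotation of the later ARS-UCD2.0 assembly, used for names only, MIR208B lay within MYH7, MIR499 within MYH7B, the chromosome 24 copies of MIR1 and MIR133A within MIB1, and MIR206 and MIR133B within the long non-coding RNA gene LOC132343629.

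The libraries differed widely in depth, with 376589 to 4464702 reads assigned to miRNAs in plasma and 21764578 to 66070772 in leucocytes. All 3 erythrocyte marker miRNAs (bta-miR-451, bta-miR-486 and bta-miR-144) were present in every library. Their summed level was 56603 to 185296 reads per 1e6 assigned reads (RPM) in plasma and 297965 to 426164 in leucocytes. The 4 leucocyte markers (bta-miR-142-5p, bta-miR-142-3p, bta-miR-150 and bta-miR-155) summed to 20772 to 38347 RPM in leucocytes and 13138 to 20827 in plasma. The granulocyte and monocyte marker bta-miR-223 had 4864 to 6342 RPM in leucocytes and 2650 to 14512 in plasma. On HG alone it had 4998 to 6342 RPM in leucocytes and 6697 to 14512 in plasma. In the leucocyte libraries the 3 erythrocyte markers thus summed to more than these 5 markers of white blood cells.

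A read that matches several names was counted in full at each of them, and the levels below are these reads in RPM unless stated otherwise. The files also give the number of distinct read sequences behind each count, and they list no name with fewer than 2 reads. A member missing from a library therefore had fewer than 2 reads there, which does not show that it was absent. At least 2 reads were found for 67 of the 84 pairs of member and library, and 22 of these rested on only 1 or 2 distinct sequences. In plasma 12 of 37 such values did so, against 29.6% of the 3799 values over all names. In leucocytes the number was 10 of 30, against 20.5% of 4654. Among plasma counts of at least 100 reads, 3 of 22 member values rested on 1 or 2 sequences, against 5.61% of 2087 over all names. These were bta-miR-133b and bta-miR-206 on FD and bta-miR-206 on HG, all in cow 4. Among such leucocyte counts it was 0 of 17, against 0.0786% of 2546. The sources used here name no unique molecular identifiers, and the counts do not separate copies of 1 molecule made by PCR.

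**Figure D1:**
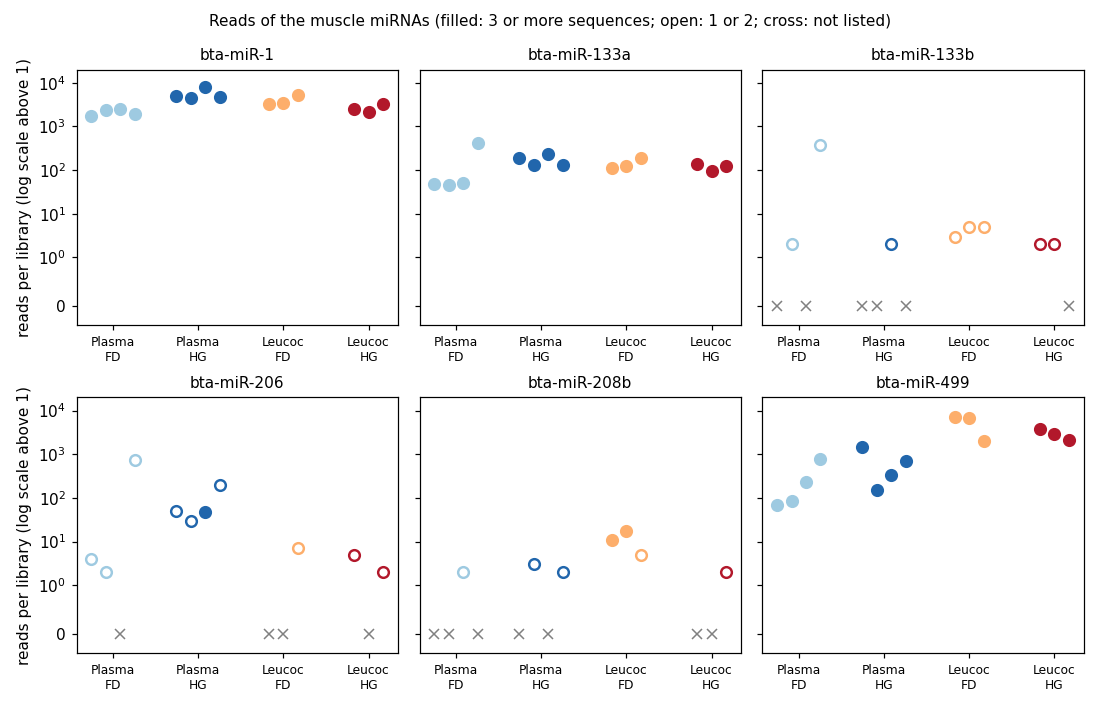
Reads of each member (y axis, log scale above 1) in each library, by sample type and diet, with cows in rising number from left to right in a group. Filled points rest on 3 or more distinct sequences, open points on 1 or 2, and crosses are libraries in which the name was not listed. All bta-miR-133b points are open, and the FD plasma library of cow 4 stands above the other FD plasma libraries for bta-miR-133a, bta-miR-133b and bta-miR-206.

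The miRNA bta-miR-1, which promotes muscle differentiation, had the most reads of the members in every plasma library. Its reads on FD were 1723, 2357, 2559 and 1883 in cows 1 to 4, and on HG 4871, 4503, 8159 and 4694, from 23 to 61 distinct sequences. In leucocytes of cows 1, 3 and 4 there were 3226, 3487 and 5223 reads on FD and 2527, 2196 and 3318 on HG, from 30 to 55 sequences. The plasma reads were higher on HG in all 4 cows and the diets did not overlap, which was the case for 20.3% of the 538 names tested.

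Scaled to depth, bta-miR-1 reached 4575, 1650, 1457 and 609 RPM on FD and 1091, 4616, 7677 and 1381 RPM on HG in plasma of cows 1 to 4. On this scale the diets overlapped, and cow 1 was lower on HG while the other 3 cows were higher. The 3 highest values belonged to the 3 smallest plasma libraries. In leucocytes the level was 48.8, 61.8 and 240.0 RPM on FD and 47.1, 56.2 and 120.4 RPM on HG, with cow 4, which had the fewest reads, highest on both diets. Among the bovine names of a library, bta-miR-1 ranked between 31 and 96 in plasma and between 103 and 143 in leucocytes.

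The number of bta-miR-1 reads hardly followed the depth of the library. Over the 14 libraries it spanned 4.74-fold, while the assigned reads spanned 175-fold. Mean reads in leucocytes were 0.866 of those in plasma, although the mean number of assigned reads was 21.3 times higher. For the 338 bovine names with a mean of at least 10 plasma reads, the median of this read ratio was 5.67, and 58 names (17.2%) were below 1. For bta-miR-499 it was 8.86 and for bta-miR-451 of erythrocytes 105.

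**Figure D2:**
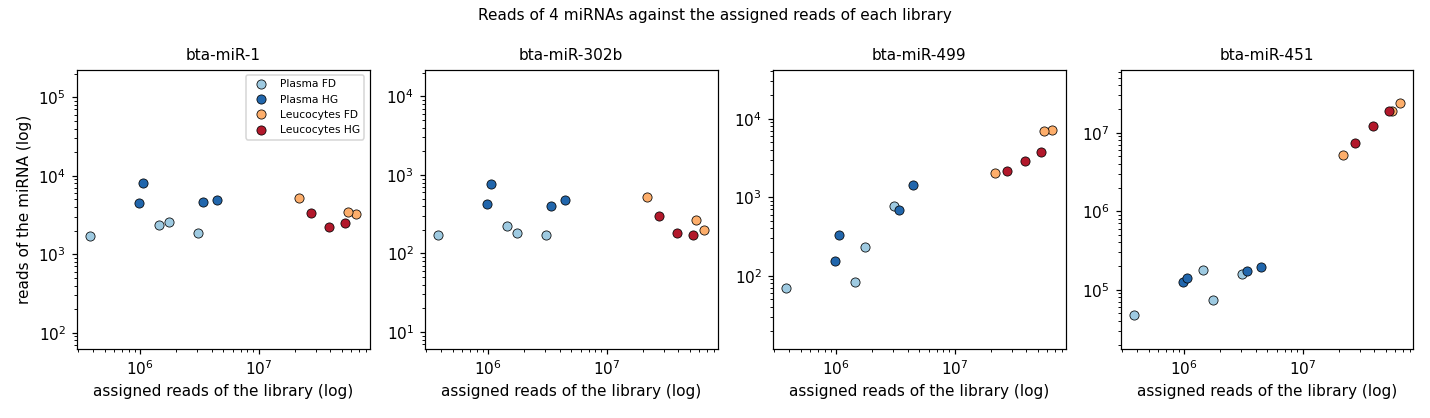
Reads of bta-miR-1, bta-miR-302b, bta-miR-499 and bta-miR-451 (y axis, log) against the assigned reads of each of the 14 libraries (x axis, log), coloured by sample type and diet. The y axes span the same fold range. Reads of bta-miR-1 stay between 1723 and 8159 and those of bta-miR-302b between 173 and 771, while the other 2 names are higher in the deeper leucocyte libraries.

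Several names known from other tissues kept a near-fixed ratio to bta-miR-1. Among 202 bovine names with at least 10 reads in every library, the SD of the log2 ratio of reads to bta-miR-1 was lowest for bta-miR-302b (0.22), a miRNA of pluripotent stem cells, and for the brain miRNAs bta-miR-124a (0.23) and bta-miR-124b (0.23), against a median of 2.29. Each bta-miR-302b read was matched by 9.96 to 16.1 reads of bta-miR-1 in all 14 libraries, and each bta-miR-124a read by 4.65 to 7.44. The ratio to the gonad miRNA bta-miR-202 was 13.2 to 22.1. It was wider for the pancreas miRNA bta-miR-216b (11.6 to 202) and for bta-miR-9-3p of brain (2.65 to 14.6). For bta-miR-133a the ratio was 4.52 to 52.4, the lowest value being that of the FD plasma library of cow 4, where 369 of its 417 reads were also those of bta-miR-133b. Less those reads, the ratio was 39.2 in that library and 18.9 to 54.8 over all 14, with an SD of 0.42 on the log2 scale. For bta-miR-499 the ratio was 0.450 to 29.4.

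A list of 10 miRNAs known from brain, stem cells, gonads and pancreas, drawn up after values of some of them had been seen, was detected in full in every library. Its most abundant name, bta-miR-9-5p, was matched by 0.596 to 1.38 reads of bta-miR-1. Where the reads of bta-miR-1 and of this list came from was not tested.

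The pattern of levels across libraries was compared as Pearson's r of log2(CPM + 1), where CPM is divided reads per 1e6 divided reads. Divided reads are deposited counts adjusted for reads that match more than once. For bta-miR-1 there were about 6 reads per divided read, and for bta-miR-499 there was 1. In plasma CPM, bta-miR-499 exceeded bta-miR-1 in cow 4 on FD (339 against 138) and cow 1 on HG (450 against 255). In the other plasma libraries bta-miR-1 was higher. Over the 8 plasma libraries, the names most like bta-miR-1 among 331 compared were bta-miR-124a (r = 0.997), bta-miR-124b (0.997) and bta-miR-9-5p (0.995). Over the 6 leucocyte libraries, among 488 names, they were bta-miR-302b (0.997), bta-miR-202 (0.995) and bta-miR-126-3p (0.995). With bta-miR-133a, made from the same loci, r was 0.690 in plasma and 0.976 in leucocytes. With bta-miR-499 it was 0.016 and 0.037. The plasma value of bta-miR-133a includes the 369 reads shared with bta-miR-133b in the FD plasma library of cow 4. Without those reads r was not computed. Points in each comparison share library depth and composition.

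The miRNA bta-miR-133a, which favours growth of muscle precursors, had 49, 45, 51 and 417 reads on FD and 188, 129, 235 and 128 on HG in plasma. In leucocytes it had 114, 125 and 193 reads on FD and 136, 97 and 125 on HG. The FD plasma library of cow 4 was the highest of all 14, and the diets overlapped in both sample types.

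This high value was shared with bta-miR-133b, which is nearly the same as bta-miR-133a in sequence. The miRNA bta-miR-133b had 0, 2, 0 and 369 reads on FD and 0, 0, 2 and 0 on HG in plasma, and 0 to 5 in leucocytes, in every case from a single distinct sequence. In the FD plasma library of cow 4, the divided count of bta-miR-133a was 89.8, which equals the value obtained when 369 of its 417 reads are those of bta-miR-133b and the other 48 are not. Without them bta-miR-133a had 15.5 RPM in that library, in place of 135. Less the bta-miR-133b reads, the mean of bta-miR-133a in plasma was 51.2 ± 53.0 RPM (SD, n = 4) for FD. For HG it was 107.8 ± 86.1 RPM (SD, n = 4). These SDs are between cows and do not measure the change within a cow. In cows 1 to 4 the values were 130, 30.1, 29.0 and 15.5 RPM on FD and 42.1, 132, 219 and 37.7 RPM on HG. The diets overlapped, with cow 1 lower on HG and cows 2, 3 and 4 higher.

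**Figure D3:**
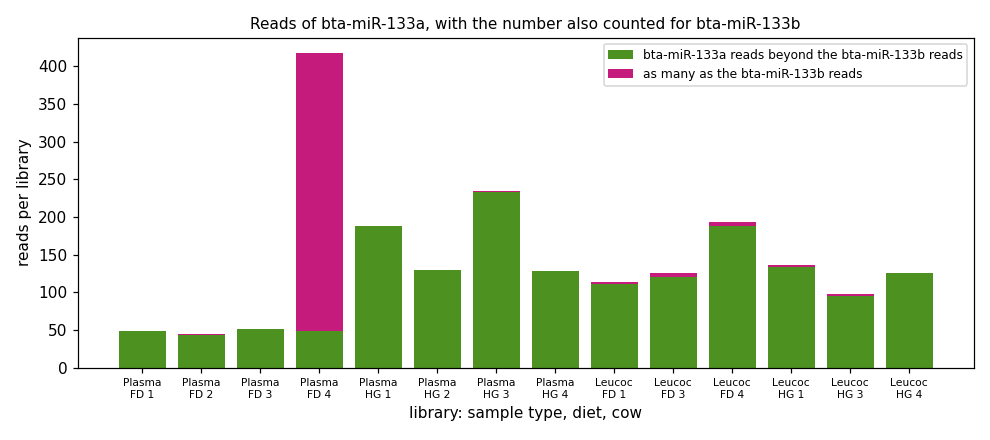
Reads of bta-miR-133a in each of the 14 libraries (bar height, linear axis), with the number also counted for bta-miR-133b marked at the top of the bar. In the FD plasma library of cow 4, 369 of 417 reads are of this kind, and in no other library are there more than 5.

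The names most like bta-miR-133a in plasma were bta-miR-199a-5p (r = 0.964), bta-miR-369-3p (0.964) and bta-miR-9-3p (0.951). In leucocytes they were bta-miR-219-3p (0.995), bta-miR-216b (0.995) and bta-miR-708 (0.990). Both comparisons kept the reads shared with bta-miR-133b, which were many in the FD plasma library of cow 4. The other arm of the hairpin, listed as hsa-miR-133a-5p, was found in the HG plasma libraries of cow 1 (3 reads) and cow 4 (38 reads), each time from 1 sequence.

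The miRNA bta-miR-206, the skeletal muscle relative of miR-1, had 4, 2, 0 and 735 reads on FD and 49, 29, 47 and 198 on HG in plasma. Its reads came from 1 to 3 distinct sequences, and in cow 4 on FD all 735 were copies of 2 sequences. In 3 of the 4 cows there were more reads on HG, and cow 4, with the highest value of all, had fewer. In leucocytes bta-miR-206 was listed in 3 of 6 libraries, with 7, 5 and 2 reads. In plasma its level was most like that of bta-miR-132 (r = 0.964), bta-miR-199c (0.946) and bta-miR-32 (0.944).

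The miRNA bta-miR-208b, the partner of the slow myosin gene MYH7, had the fewest reads of the members over all libraries. Plasma held 3 reads at most, in 3 of 8 libraries and always from 1 sequence. Leucocytes had 11, 17 and 5 reads on FD and 0, 0 and 2 on HG, so HG lay below FD without overlap, as for 5.12% of the 782 names tested on reads. Only the FD libraries of cows 1 and 3 had as many as 3 sequences. The related heart miRNA bta-miR-208a had 268 reads from 1 sequence in the FD plasma library of cow 4 and 34 from 1 sequence in the HG library of cow 2, and 2 at most elsewhere.

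The miRNA bta-miR-499, made from an intron of MYH7B, had more reads in leucocytes than in plasma in every library. Plasma reads were 69, 84, 235 and 773 on FD and 1431, 153, 327 and 686 on HG, from 3 to 7 sequences. Leucocyte reads were 7169, 6938 and 2018 on FD and 3773, 2936 and 2143 on HG, from 15 to 55 sequences. Scaled to depth, plasma had 183, 58.8, 134 and 250.1 RPM on FD and 320.5, 157, 308 and 202 RPM on HG. In leucocytes the level was 109, 123 and 92.7 RPM on FD and 70.4, 75.1 and 77.8 RPM on HG, so every HG library lay below every FD library, as for 9.21% of the 782 names tested.

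In plasma bta-miR-499 was most like bta-let-7d (r = 0.889), bta-miR-22-5p (0.879) and bta-miR-2478 (0.866). In leucocytes it was most like bta-miR-369-3p (0.982), bta-miR-147 (0.951) and bta-miR-196b (0.934).

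**Figure D4:**
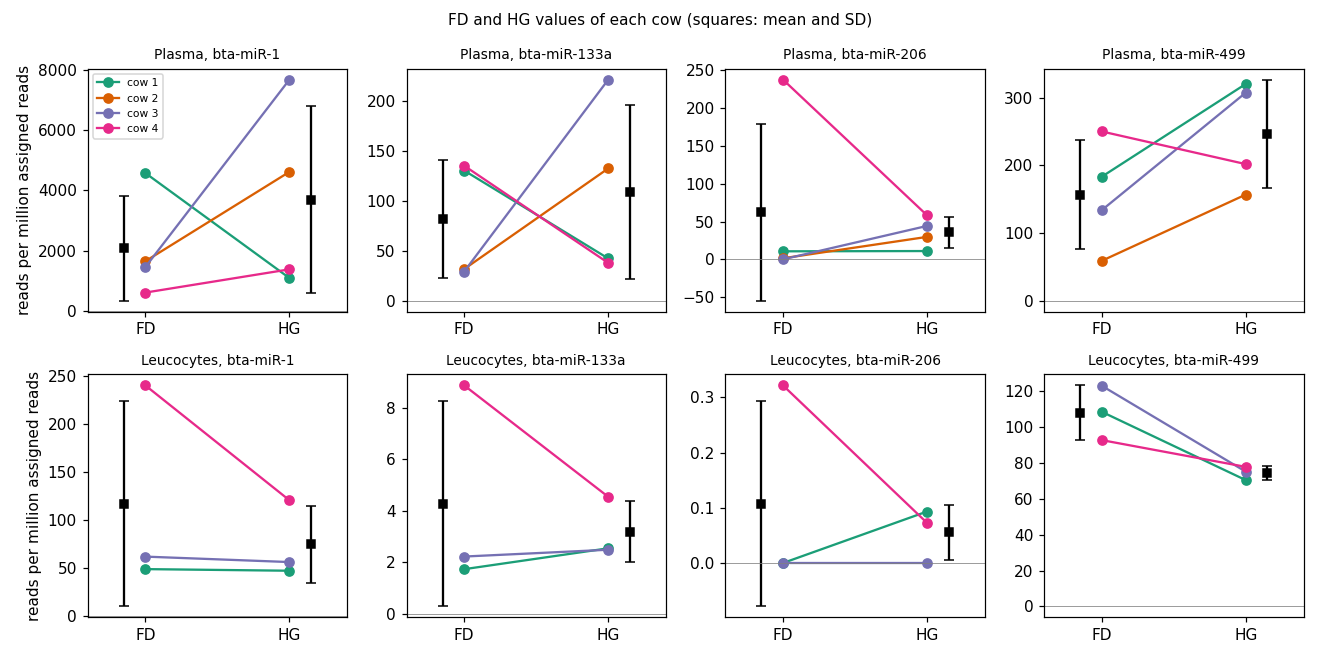
Level of 4 members on FD and HG (y axis, RPM, a scale of its own in each panel) in plasma (top) and leucocytes (bottom). Lines join the values of a cow, and squares with bars give the mean and SD of each diet. In leucocytes bta-miR-499 was lower on HG in all 3 cows, while lines of bta-miR-1 in plasma cross.

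Whether the HG diet changed the members was tested with edgeR's quasi-likelihood test with cow and diet as terms and Benjamini-Hochberg adjustment over all names. In plasma 0 of 538 names passed (0%), with 55 at an unadjusted p under 0.05 and 12 by DESeq2. The log2 fold change of HG over FD was 0.39 ± 0.65 (SE) for bta-miR-1 (edgeR adjusted p = 0.950). It was 0.15 ± 1.19 for bta-miR-133a (edgeR adjusted p = 0.984), and 0.78 ± 1.04 less the reads shared with bta-miR-133b (edgeR adjusted p = 0.940), a setting chosen after the data were seen. It was 0.38 ± 0.66 for bta-miR-499 (edgeR adjusted p = 0.950). For bta-miR-206 it was 1.82 ± 1.99 (edgeR adjusted p = 0.938), and -1.59 without the replicate block of cows. Leaving out 1 cow moved it between 0.42 (without cow 3) and 3.29 (without cow 4), with 0.76 without cow 2. No fold is given for bta-miR-133b, whose rounded counts were 0 in all HG plasma libraries, and bta-miR-208b had too few reads to be tested.

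In leucocytes 15 of 782 names passed (1.92%), and no member was among them. The log2 fold change was -0.53 ± 0.16 (SE) for bta-miR-499, lower on HG in 3 of 3 cows (edgeR adjusted p = 0.125; unadjusted p = 0.00518 in the same fit). DESeq2 gave an adjusted p of 0.0380 for it, and called 25 of the 782 names as lower (3.2%). The call turned on single cows: without cow 4 the edgeR adjusted p was 1.43e-04 with a log2 fold change of -0.69, in a fit that called 6.93% of names as lower, and without cow 1 or 3 it was 0.550 or 0.992. For bta-miR-1 the log2 fold change was -0.40 ± 0.22 (edgeR adjusted p = 0.435), and it was -0.09 ± 0.36 for bta-miR-133a (edgeR adjusted p = 0.959). The few reads of bta-miR-208b gave an edgeR adjusted p of 0.417, and bta-miR-133b and bta-miR-206 were too low to be tested.

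The difference between the diet effects of plasma and leucocytes was tested in a fit to all 14 libraries, in which 0 of 800 names passed (0%), with 93 at an unadjusted p under 0.05 and 12 by DESeq2. Among the members, bta-miR-499 had a difference of 0.72 ± 0.69 (SE) on the log2 scale and bta-miR-1 one of 0.60 ± 0.80, both with an edgeR adjusted p of 1.

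The members that differed between plasma and leucocytes were bta-miR-1, bta-miR-133a, bta-miR-133b and bta-miR-206 on FD, all higher in plasma. Plasma held 2073 ± 1728 (SD, n = 4) RPM of bta-miR-1 on FD and leucocytes 117 ± 107 (SD, n = 3). On HG the levels were 3691 ± 3100 (SD, n = 4) and 74.6 ± 40.0 (SD, n = 3). For bta-miR-133a they were 81.4 ± 59.1 and 4.27 ± 3.99 on FD, and 108 ± 86.9 and 3.19 ± 1.17 on HG, with the same numbers of libraries. For both miRNAs all plasma libraries lay above all leucocyte libraries on either diet. How many of all names were separated in this way was not counted. The reads of both miRNAs differed much less between the sample types. On FD the mean was 2131 in plasma and 3979 in leucocytes for bta-miR-1, and 141 and 144 for bta-miR-133a. On HG the means were 5557 and 2680 for bta-miR-1, and 170 and 119 for bta-miR-133a. The higher RPM in plasma thus goes with libraries of far fewer assigned reads, and whether it reflects more of these miRNAs in plasma was not tested.

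In RPM, markers of liver and endothelium were also higher in plasma. The liver markers bta-miR-122 and bta-miR-192, both detected in every library, summed to 7377 to 68969 RPM in plasma and 566 to 741 in leucocytes. Mean reads of bta-miR-122 were 62608 in plasma and 1268.5 in leucocytes, and those of bta-miR-1 were 3844 and 3329.5. The endothelial pair bta-miR-126-3p and bta-miR-126-5p summed to 2291 to 5433 RPM in plasma and 46.7 to 206 in leucocytes. The part of other tissues in the plasma levels was not tested.

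On FD, edgeR called 316 of 747 names (42.3%), 129 of them higher in plasma (17.3%) and 187 lower (25%). The log2 difference of plasma minus leucocytes was 3.64 ± 0.86 (SE) for bta-miR-1 (edgeR adjusted p = 0.0114) and 3.56 ± 1.0 for bta-miR-133a (edgeR adjusted p = 0.0214). Less the reads shared with bta-miR-133b, the latter was 3.02 (edgeR adjusted p = 0.0340). Both calls were lost without cow 1, where the differences fell to 2.27 and 2.52 (edgeR adjusted p = 0.0851 and 0.148). They were also lost without cow 3, at 3.45 and 3.53 (edgeR adjusted p = 0.0750 and 0.0968), and without cow 4 they were 4.74 and 4.11. With a replicate block of cows 1, 3 and 4, bta-miR-133a did not pass at 3.85 (edgeR adjusted p = 0.0687), nor did bta-miR-133b (0.113). The calls of bta-miR-133b (edgeR adjusted p = 0.0221) and bta-miR-206 (0.0409) rested on the 369 and 735 reads of the FD plasma library of cow 4. Without that library neither had enough reads to be tested, while bta-miR-1 (3.92, edgeR adjusted p = 0.0100) and bta-miR-133a (3.26, 0.0161) still passed. The call of bta-miR-206 was also lost without cow 1 or cow 3 (edgeR adjusted p = 0.144 and 0.0644) and with undivided reads (0.0515), and that of bta-miR-133b without cow 1 (0.108). A stricter filter on low reads left bta-miR-133a just short of a call (edgeR adjusted p = 0.0517).

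On HG, 398 of 732 names passed (54.4%), 119 of them higher in plasma (16.3%) and 279 lower (38.1%). The log2 difference was 3.58 ± 0.66 (SE) for bta-miR-1 (edgeR adjusted p = 0.00401) and 3.04 ± 0.75 for bta-miR-133a (edgeR adjusted p = 0.0111). With library totals in place of TMM scaling the differences were 5.77 and 5.22. Without 1 cow the difference of bta-miR-1 was 2.94 to 4.47. The call of bta-miR-133a was lost without cow 3, at 2.44 (edgeR adjusted p = 0.0953), and with the replicate block, at 2.74 (edgeR adjusted p = 0.103). Plasma held 10.98 to 58.2 RPM of bta-miR-206 on HG and leucocytes 0 to 0.0933 (edgeR adjusted p = 0.00375).

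With TMM scaling the levels of bta-miR-499 were not told apart between plasma and leucocytes. The log2 difference was 0.03 ± 0.66 (SE) on FD (edgeR adjusted p = 0.974) and -0.07 ± 0.42 on HG (edgeR adjusted p = 0.906). This depended on the scaling. In RPM the FD means were 156 ± 80.7 (SD, n = 4) in plasma and 108 ± 15.2 (SD, n = 3) in leucocytes, with overlap. On HG they were 247 ± 80.1 and 74.4 ± 3.75, and every plasma library lay above every leucocyte library. The share of all names with such a separation was not counted. When libraries were scaled by their totals alone, the HG difference was 1.92 (edgeR adjusted p = 0.00464), and 236 names (32.2%) were then higher in plasma and 81 (11.1%) lower, in place of 119 and 279. On FD that scaling gave 164 higher and 128 lower, in place of 129 and 187. The median log2 difference of all names was -1.18 on FD and -1.21 on HG with TMM scaling, and -0.54 and 0.77 with library totals. Differences between plasma and leucocytes are thus relative to the scaling used, and are to be read beside these medians.

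A wider list of 17 miRNAs known in muscle differentiation or smooth muscle that other tissues also make was tested in the same fits. It held bta-miR-378, bta-miR-486, bta-miR-22-3p, bta-miR-27b, bta-miR-24-3p, bta-miR-26a, bta-miR-29b, bta-miR-29c, bta-miR-181a, bta-miR-181b, bta-miR-214, bta-miR-199a-3p, bta-miR-143, bta-miR-145, bta-miR-221, bta-miR-222 and bta-miR-23a, of which bta-miR-486 is also an erythrocyte marker. With edgeR no name of the list passed for diet in plasma (median log2 fold change -0.13, against 0.25 for all names) or in leucocytes (-0.15 against -0.01). In leucocytes DESeq2 called 5 of the 17 as lower on HG, 0 as higher and 12 not, where 3.2% of all names were lower. Without cow 4, edgeR called 6 as lower, 1 as higher and 10 not, where 6.93% of all names were lower. Between plasma and leucocytes on FD, 6 were higher in plasma, 2 lower and 9 not called (median 1.49 against -1.18), where 17.3% of all names were higher and 25% lower. On HG 3 were higher, 6 lower and 8 not called (median -0.05 against -1.21), where 16.3% of all names were higher and 38.1% lower. With library totals 10 were higher and 0 lower, against 32.2% and 11.1% of all names.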

How the data were processed

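Small RNA libraries (NEXTflex kit) were demultiplexed by the authors with bcl2fastq 2.20, trimmed with Skewer and matched by sRNAbench to miRBase names of cattle and human on UMD3.1. The library files deposited by the authors give read counts (full at each matching name), distinct-sequence counts and estimated counts (expected counts, divided for reads that match more than once). A deposited scaled value, treated as a score, only recovered the assigned reads of each library. The 14 columns of the deposited series tables were not used. The members and lists were chosen with earlier results of these data known.

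Estimated counts were rounded, names with at least 10 reads in total kept, and edgeR 4.0.16 (R 4.3.3; TMM, robust quasi-likelihood) fitted with cow and diet, or sample type alone, at a Benjamini-Hochberg adjusted p under 0.05. DESeq2 1.42.0, other scalings and filters, and leaving out each cow were alternatives. Scripts were tested on simulated data. Named are the members, their other arms, neighbours within 10 kb and the 3 names most like each. The replicate numbers pair samples because they stand for the same cows. In plasma this rests on the study's numbering: deviations correlated at -0.221 to 0.162 within cows and -0.269 to 0.321 between cows, against 0.433 to 0.651 and -0.611 to 0.325 in leucocytes.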

Additional observations from a re-analysis of the deposited data

Results flagged for a closer look

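In the plasma groups of 4 libraries, 4 of 12 member-by-diet groups held a library whose gap to its nearest neighbour was above Dixon's critical share of the range of the group. Chance alone marks about 1 in 20 groups, and groups in which most libraries are at 0 are easily marked. On FD, cow 4 stood apart with a CPM (divided reads per 1e6) of 32.4 for bta-miR-133b, where the others had 0 to 0.357, and of 161 for bta-miR-206, where the others had 0 to 6.84. The other pair rested on 2 reads from 1 sequence each, namely bta-miR-133b on HG in cow 3 (0.478) and bta-miR-208b on FD in cow 3 (0.764), with the remaining libraries at 0. The cause was not tested.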

How the results depend on the processing

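With 3 or 4 cows and plasma depths that differed 11.9-fold, small differences could not be shown. Of 287 recomputed member values with an adjusted p, 242 kept their direction and side of the threshold, 13 lost a call, 2 gained one and 30 changed sign. DESeq2 gave no adjusted p for bta-miR-133b, bta-miR-206 and bta-miR-208b between plasma and leucocytes on FD, nor for bta-miR-133a and bta-miR-208b for diet in leucocytes or bta-miR-208b for the difference of effects. Where a cause is not plain from fewer names or fewer libraries, the cause was not tested.

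The number of names called for diet in leucocytes (15) was 32 with DESeq2, 9 with its size factors, 6 with a stricter filter on low reads, 5 with identical names taken once, and 0 to 102 without 1 cow. With DESeq2 12 names were called for diet in plasma and 12 for the difference between diet effects, and 0 by edgeR without any 1 cow. Between plasma and leucocytes, that filter left 151 names on FD and 224 on HG, and leaving out 1 cow gave 132 to 303 and 254 to 363, the first range counting the removal of the FD plasma library of cow 4 alone, chosen after the data were seen. That library moved bta-miR-208b and bta-miR-499 as given below.

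Without the replicate block of cows, 0 names passed for diet in leucocytes, bta-miR-206 turned to -1.59 in plasma and its difference between diet effects to -1.22. With a replicate block of cows 1, 3 and 4, 145 names differed between plasma and leucocytes on FD, bta-miR-208b was 0.0097 there and bta-miR-499 0.0897 on HG. Beyond these and the losses of bta-miR-133a and bta-miR-133b given above, pairing changed no call of a member.

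Changes of sign were otherwise of values without a call in either setting, with 1 exception. On FD bta-miR-208b (-0.11) was 0.0367 with undivided reads, 0.43 with library totals, 0.0042 with identical names taken once, and -0.76 to 0.65 without 1 cow or library. There bta-miR-499 (0.03) was -0.3014 with DESeq2, -0.30 with its size factors, -0.81 with the stricter filter -0.60 to 0.28 without 1 cow and -0.40 without the FD plasma library of cow 4. On HG bta-miR-499 (-0.07) was 0.43 with DESeq2, 0.4299 with its size factors, 1.92 with library totals, the exception with a call, 0.14 without a filter, 0.25 with the stricter filter and -0.0429 to 0.31 without 1 cow. For bta-miR-133a, leaving out 1 cow gave -0.51 to 0.86 for diet in plasma, -0.35 to 0.34 in leucocytes and -0.62 to 1.08 for the difference of effects, which undivided reads put at -0.10. For bta-miR-206 that difference ran from -0.18 to 3.86.

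The summed CPM of the members rose with undivided reads, in which each read counts at every name, from 738 to 1614 in plasma on FD and from 1189 to 2725 on HG, and was 137 in place of 152 in leucocytes on FD.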
